A study of Mus musculus with 4 samples.

Results

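The extracellular proteases and their inhibitors were followed across 4 RNA-seq libraries of Myc-CaP, a mouse prostate cancer cell line derived from a Hi-Myc animal (FVB strain, transgenic for Myc). The group was defined by gene symbol: the protein-coding members of the Mmp, Adam, Adamts, Adamtsl, Timp, Serpin, Htra, Prss and Klk families, with Plau, Plaur, Plat, Spint1, Spint2, St14 and Reck. The deposited count table held 207 such genes among 22027 protein-coding genes. Of these, 42 reached a CPM of 1 (counts scaled to the library total) in at least 1 library and are described here. Of these, 33 reached it in all 4 libraries and 9 in some only: Mmp28, Adam1a, Adam11, Prss8 and Prss32 reached it in shFAK alone (the last 3 in the norepinephrine library alone), Mmp10 and Prss22 in shNC alone, and Adamts12 and Mmp17 in libraries of both lines. The other 165 stayed below that level, and 56 of them had no count in any library.

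All 4 cultures carried a stable short hairpin RNA, either against focal adhesion kinase (FAK, encoded by Ptk2; shFAK) or a negative control sequence (shNC). Each line was kept for 24 h in 10 µM norepinephrine or in vehicle. Each of the 4 combinations of hairpin and treatment was 1 library, with 23410486 to 29948640 counts per library. The labels do not say how many hairpin sequences or clones stood behind each line, so what the hairpin did and whatever else separated these lines cannot be told apart. Ptk2 was lower in both shFAK libraries, with 3547 and 3158 counts in shNC (vehicle, norepinephrine) and 1294 and 1248 in shFAK.

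Of the epithelial and prostate markers described here, Hoxb13, Krt19 and Krt8 had a mean of at least 1 CPM. Epcam, Cdh1 and Krt18 were below 1 CPM in every library, so these libraries held few or no reads of several defining epithelial transcripts. Pdgfra was the 1 fibroblast marker of 7 above 1 CPM, and the fibroblast list summed to 7.65 to 13.5 CPM, while Col3a1, Dcn and Lum were at 0. Some markers moved with the line: Pdgfra was at 9.32 and 7.43 CPM in shNC and 12.3 and 12.4 in shFAK, Col1a1 at 0.371 and 0.15 against 0.904 and 0.999, and Krt8 at 5.17 and 6.19 against 1.88 and 2.00. The 4 endothelial markers summed to at most 0.225 CPM and the 5 leukocyte markers to at most 1.55 CPM. Their part in the results was not tested.

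Extracellular proteases cut matrix proteins, growth factors and receptors at or near the cell surface. Matrix metalloproteinases (MMPs), ADAMs and ADAMTS enzymes use a zinc ion for catalysis; MMPs are held in check by tissue inhibitors of metalloproteinases (TIMPs) and the membrane protein Reck, and TIMPs also inhibit some ADAM and ADAMTS enzymes. The plasminogen system runs through the serine proteases urokinase (Plau) and tissue plasminogen activator (Plat) and the urokinase receptor (Plaur). Membrane-linked serine proteases such as prostasin (Prss8) are characteristic of epithelia and are inhibited by the Kunitz-type proteins encoded by Spint1 and Spint2.

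Per unit of length, 3 genes made up 52.3% of the summed level of the 42. Htra1, a secreted serine protease, was at a mean of 269 RPKM (CPM per kilobase of gene length), Timp2 at 121 and Timp1 at 115. Plaur followed at 62.6 RPKM. The highest members of the other classes were Spint2 (46.8 RPKM), Adam9 (40.3), Adamts1 (26.5), Serpinb6a (24.6), Prss23 (16.8), Adamtsl4 (10.9) and Mmp11 (9.47), while the only membrane-type MMP described, Mmp17, was at 0.15. In the 42, 11 genes had a mean of at least 100 CPM and 5 had a mean under 1 CPM.

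**Figure D1:**
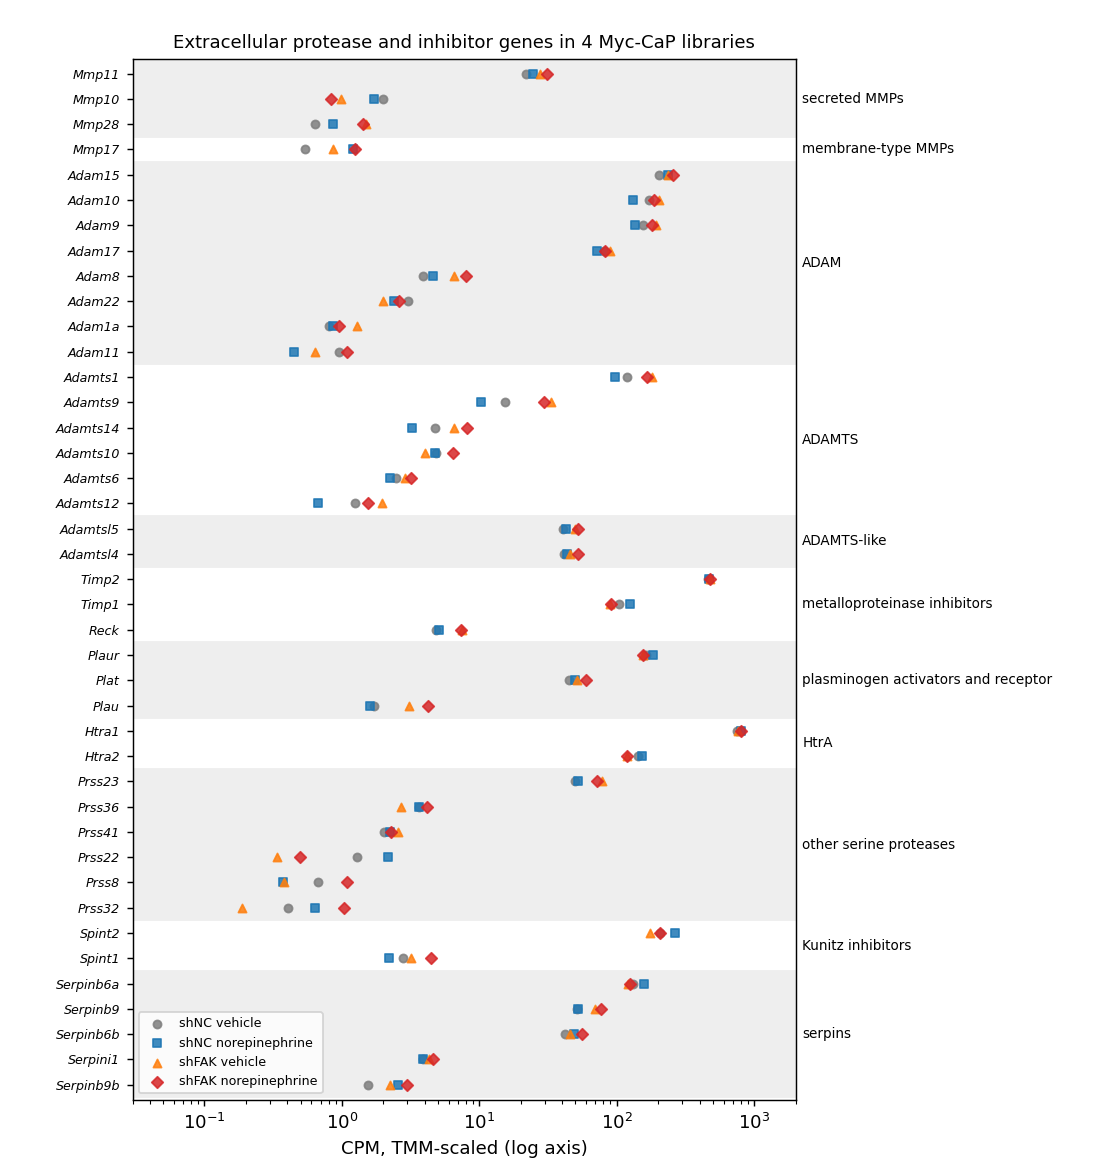
CPM of 41 of the 42 genes (log axis) in the 4 libraries, ordered by role; each point is 1 library and there are no error bars, since each group had 1 library. Htra1 lies at 745 to 802 CPM and Timp2 at 461 to 478 CPM in every library, while for Adamts9, Plau and Prss22 the shFAK points lie clear of the shNC points.

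The first comparison asked which protease and inhibitor genes differed between the shFAK and shNC lines. Adamts1, Adamts9, Adamts14, Plau, Adam8 and Prss23 were among the genes called higher in shFAK, and Prss22, Mmp10, Timp1, Spint2, Htra2 and Serpinb6a were lower. In a model with additive terms for hairpin and treatment fitted to all 12351 genes with at least 1 CPM in a library, 16 of the 42 members were called higher in shFAK and 6 lower by edgeR's quasi-likelihood test at an adjusted p under 0.05. Over all genes tested, 19.5% were called higher and 16.2% lower, against 38.1% and 14.3% of the members. The members called include Mmp28 (higher) and Mmp10 and Prss22 (lower). Each of these reached 1 CPM only in the line where it was higher, so its direction is tied to the filter. The model has 1 residual degree of freedom. Its p-values rest on the departure from additivity pooled over genes and hold only if both lines respond alike to norepinephrine. They do not measure variation between cultures. Of the members called, Adamts1, Adamts9, Adamts14, Adam9, Adam10, Timp1, Spint2 and Serpinb6a had responses that differed between the lines by more than counting error. For these genes the condition of like responses was not met in the counts.

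The call depended on the test and on scaling. With the DESeq2 Wald test, 6 members were higher and 3 lower, against 7.38% and 6.15% of all genes, and 4 members called by edgeR (Mmp10, Mmp28, Adamts12 and Prss22) received no adjusted p. With library size alone as the scaling, 19 were higher and 5 lower, against 23% and 9.41% of all genes; with the trend of the ratios with gene length taken off, 14 and 5, against 12.3% and 21.5%.

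Each pair of libraries was also compared on its own, with a log2 ratio of CPM (prior count 2) and the 99% counting interval. A gene met the size rule when the ratio was at least 2-fold and the interval left out 0. Under vehicle, 2 members were higher in shFAK (Adamts9 and Mmp28) and 1 lower (Prss22), against 1.42% and 0.462% of all genes. Under norepinephrine, 5 were higher (Adamts9, Adamts12, Adamts14, Plau and Prss8) and 1 lower (Prss22), against 2.62% and 0.632%. Adamts9 alone was higher in both pairs and Prss22 alone was lower in both; 0.769% and 0.162% of all genes were. Without the fold condition, the interval left out 0 for 18 members higher and 6 lower under vehicle, against 21% and 20.9% of all genes, and for 20 higher and 7 lower under norepinephrine, against 27.7% and 25.7%. The member median was 0.18 under vehicle and 0.25 under norepinephrine, beside 0.00 and 0.02 for all genes. Both shFAK libraries lay above both shNC libraries for 23 of the 42 genes and below them for 6, or 54.8% and 14.3%, against 30.3% and 29.2% of all genes. Mmp28, Adam1a, Prss8, Prss22 and Mmp10 passed the CPM filter only through the line in which they were higher, so their direction is tied to the filter. The 23 genes above include Mmp28 and Adam1a, and the 6 below include Mmp10 and Prss22. The calls of these filter-tied genes, in the pairs or in the additive model, do not bear on the members as a group. Nor does their part in the counts of intervals and of libraries lying apart. These pairs have no replicate check. RNA from fewer cells of one kind and less RNA per cell cannot be told apart in bulk libraries.

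**Figure D2:**
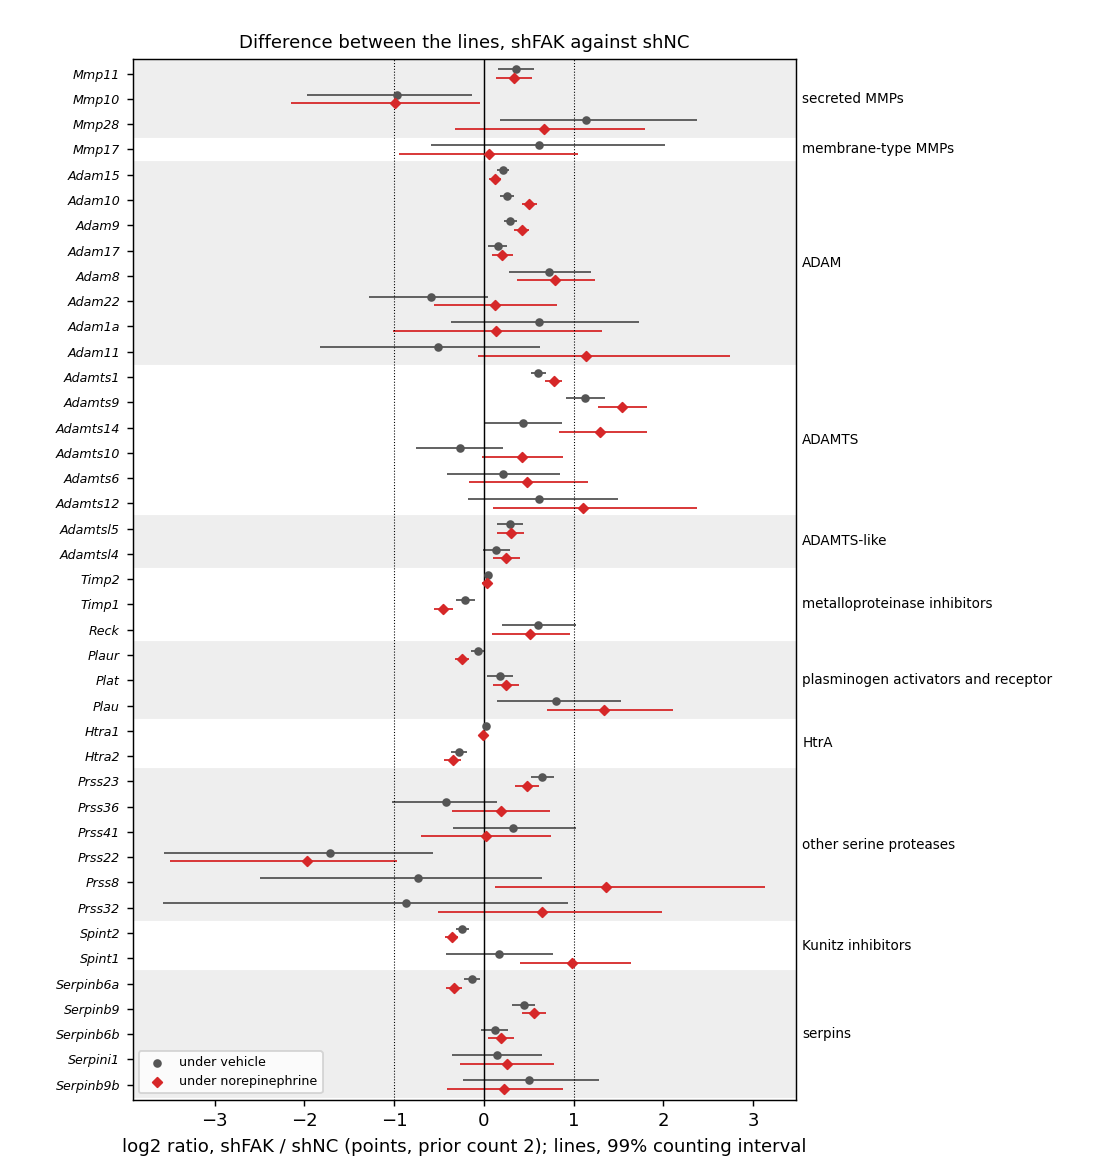
Log2 ratio of shFAK to shNC for 41 of the 42 genes under vehicle (grey circles) and under norepinephrine (red diamonds), ordered by role; lines are 99% counting intervals and dotted lines mark 2-fold. Adamts9 lies above the upper dotted line in both pairs (1.13 and 1.54) and Prss22 below the lower one (-1.71 and -1.97), while Timp2 and Htra1 lie within 0.05 of 0.

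The ADAMTS family, secreted metalloproteinases that cut proteoglycans and procollagens, gave 4 calls higher in shFAK among 6 measured genes and none lower, beside the 19.5% and 16.2% of all genes called, which are the shares to hold against each class count below. Adamts9, an aggrecan- and versican-cutting enzyme (ENSMUSG00000030022, mm10 chromosome 6, 92772699 to 92943492, minus strand), had 452 counts in shNC with vehicle and 272 with norepinephrine, against 888 and 714 in shFAK. The shFAK libraries were both above the shNC libraries, at 33.5 and 29.7 CPM against 15.3 and 10.2. The log2 ratio was 1.13 under vehicle (interval 0.92 to 1.35) and 1.54 under norepinephrine (1.28 to 1.81), and 1.32 ± 0.10 (SE) in the additive model (adjusted p = 3.12e-35 by edgeR). With the length trend taken off the vehicle ratio was 0.93, short of 2-fold. Exons of Adamts9 overlap 2 antisense genes, which had at most 2 counts in any library.

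Adamts1 (chromosome 16, 85793827 to 85803113), which also cuts aggrecan and versican, had 3503, 2592, 4773 and 4002 counts (shNC without and with norepinephrine, then shFAK likewise, the order used from here on). Its levels were 180 and 167 CPM in shFAK and 118 and 97.2 in shNC, without overlap. The ratios were 0.60 (0.52 to 0.69) and 0.78 (0.68 to 0.87), and the model gave 0.69 ± 0.09 (SE; adjusted p = 3.69e-13 by edgeR). Adamts14, a procollagen N-propeptidase, had 142, 87, 173 and 195 counts, and both shFAK libraries were again the higher ones. Its ratio was 0.44 (0.01 to 0.88) under vehicle and 1.30 (0.83 to 1.82) under norepinephrine (adjusted p = 1.44e-06 by edgeR and 0.0518 by DESeq2). Adamts12 rested on 37, 18, 52 and 37 counts, with equal counts in shNC vehicle and shFAK norepinephrine and ratios of 0.62 under vehicle, with 0 inside the interval, and 1.11 (0.10 to 2.37) under norepinephrine; its adjusted p was 0.0407 by edgeR and 0.0963 with the length trend taken off. Adamts6 (0.21 and 0.48) and Adamts10 (-0.27 and 0.42) were not called.

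The 250 bases before the RefSeq start sites of Adamts9 (chr6:92943535-92943784, minus strand) and Adamts1 (chr16:85803114-85803363, minus strand), build GRCm38.p6, are shown because both genes were higher in shFAK in both pairs, and that of Mmp10 (chr9:7502092-7502341, plus strand) because it was lower in both. Each runs 5′ to 3′ on the gene's strand, and capitals mark matches on either strand to the letters searched.
Adamts9: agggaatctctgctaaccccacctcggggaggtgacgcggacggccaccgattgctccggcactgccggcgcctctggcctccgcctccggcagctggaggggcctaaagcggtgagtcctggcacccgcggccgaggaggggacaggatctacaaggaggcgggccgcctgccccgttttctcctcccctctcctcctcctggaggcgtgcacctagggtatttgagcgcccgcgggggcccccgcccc
Adamts1: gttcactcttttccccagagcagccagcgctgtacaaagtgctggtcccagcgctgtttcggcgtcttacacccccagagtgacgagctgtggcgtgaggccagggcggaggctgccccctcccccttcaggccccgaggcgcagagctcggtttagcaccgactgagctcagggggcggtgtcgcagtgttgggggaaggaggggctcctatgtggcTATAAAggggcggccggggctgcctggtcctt
Mmp10: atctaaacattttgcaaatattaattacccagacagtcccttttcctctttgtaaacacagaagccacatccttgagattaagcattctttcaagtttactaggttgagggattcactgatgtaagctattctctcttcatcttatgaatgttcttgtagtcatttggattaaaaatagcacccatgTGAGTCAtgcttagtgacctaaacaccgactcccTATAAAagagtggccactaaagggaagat

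The motif searched for AP-1 was TGANTCA, where N is any base. For the cAMP response element it was TGACGTCA, for TEAD factors it was GGAATG, and for the TATA box it was TATAAA, each on both strands. The Adamts9 stretch held none of them and was 71.2% G or C. Adamts1 held TATAAA with its first base at -32 and was 65.6% G or C. Mmp10 held TGAGTCA at -63 and TATAAA at -29 and was 37.2% G or C. RefSeq promoters were found for 31 of the 42 genes, 38 promoters in all. Of the 38, 5 held the AP-1 letters (13.2%), 0 the cAMP response element, 3 GGAATG and 2 TATAAA. By gene, 4 of the 31 held the AP-1 letters, since overlapping promoters of Prss23 share the same site. Of all 32851 promoters in the table, 6.75% held the AP-1 letters, 1.55% the cAMP response element, 12.6% GGAATG and 12.4% TATAAA. A match of letters is a description and not evidence of binding.

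Among MMPs, 2 of the 3 secreted members were called higher and 1 lower. Of these, Mmp28 reached the CPM minimum in shFAK alone and Mmp10 in shNC alone, so their directions are tied to the filter. Mmp10, stromelysin-2 (chromosome 9, 7502352 to 7510240), had 59, 46, 26 and 20 counts. Both shFAK libraries were below both shNC libraries, with ratios of -0.97 (interval -1.98 to -0.14) and -0.99 (-2.15 to -0.04) and an adjusted p of 0.0123 by edgeR. Mmp11, stromelysin-3 and the highest MMP per length, had 642, 658, 736 and 749 counts (ratios 0.35 and 0.34, adjusted p = 0.00213 by edgeR and 0.134 by DESeq2); its exons overlap those of Chchd10 on the other strand. Mmp28, epilysin, rested on 19, 23, 40 and 34 counts, with ratios of 1.14 (0.18 to 2.38) and 0.67 (-0.33 to 1.80). Its adjusted p was 0.0435 by edgeR and 0.0668 with the length trend taken off, and the overlapping antisense gene 1700020L24Rik had 10 to 17 counts. Mmp17 had 16 to 32 counts and was not called. The gelatinases Mmp2 and Mmp9 and the membrane-type Mmp14 stayed below 1 CPM, with at most 2, 11 and 10 counts in a library.

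ADAM proteins are membrane-anchored, and many, though not all, are proteases that release the outer parts of surface proteins. Of 8 measured genes, 3 were called higher in shFAK and none lower. Adam10 (chromosome 9, 70678997 to 70780229), the main sheddase of Notch receptors and E-cadherin, had 5056, 3513, 5417 and 4490 counts, or 171, 132, 204 and 187 CPM. Both shFAK libraries were the higher ones, with ratios of 0.26 (0.19 to 0.33) and 0.50 (0.42 to 0.59; adjusted p = 0.000129 by edgeR). Adam9 had ratios of 0.30 and 0.42 (adjusted p = 0.000338 by edgeR). Adam8, a protease best known from leukocytes, had 116, 123, 173 and 193 counts and ratios of 0.72 and 0.79 (0.37 to 1.24 under norepinephrine; adjusted p = 1.26e-05 by edgeR and 0.0649 by DESeq2). Adam17, the TNF-alpha converting enzyme, was at 0.15 and 0.21 and Adam15 at 0.21 and 0.12; neither was called, and both were called higher with library size alone as the scaling (adjusted p of 0.0325 and 0.027 by edgeR). Adam1a, Adam11 and Adam22, with 12 to 90 counts in a library, were not called. Of the ADAMTS-like genes, which lack the protease domain, Adamtsl5 was called higher in shFAK (0.29 and 0.30, adjusted p = 0.00484 by edgeR and 0.129 by DESeq2). Adamtsl4 was not called (0.14 and 0.25, adjusted p = 0.0764 by edgeR).

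The metalloproteinase inhibitors did not move as a group: 1 of 3 was called higher and 1 lower. Timp1 (chromosome X, 20870166 to 20874735) had 104 and 124 CPM in shNC and 89.8 and 90.8 CPM in shFAK. Both shFAK libraries were the lower ones, with ratios of -0.20 (-0.31 to -0.10) and -0.45 (-0.55 to -0.35) and an adjusted p of 0.00136 by edgeR. At 888 bases Timp1 is a short gene, and with the length trend taken off its change was -0.15 with an adjusted p of 0.0962. Timp2 had 461, 468, 478 and 478 CPM in the same order, with ratios of 0.05 and 0.03 and an adjusted p of 0.749 by edgeR, and its 4 libraries were close together. Reck, a membrane-anchored MMP inhibitor, had 144, 136, 197 and 176 counts and ratios of 0.60 (0.20 to 1.03) and 0.52 (0.09 to 0.96; adjusted p = 0.00103 by edgeR and 0.184 by DESeq2). Timp3 and Timp4 had at most 2 counts in a library.

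In the plasminogen system, the activators were called higher in shFAK and the receptor was not called. Plau (chromosome 14, 20836660 to 20843385) had 51 and 43 counts in the shNC libraries and 81 and 101 in those of shFAK. The 2 lines did not overlap, and the ratios were 0.80 (0.15 to 1.53) and 1.34 (0.70 to 2.11; adjusted p = 6.68e-05 by edgeR and 0.0717 by DESeq2). Plat, at 1333 to 1427 counts, had ratios of 0.18 and 0.25 (adjusted p = 0.0403 by edgeR and 0.291 by DESeq2). With the length trend taken off its change was 0.08 and was no longer called (adjusted p = 0.40 by edgeR). Plaur had 162 and 183 CPM in shNC and 155 and 154 CPM in shFAK, with ratios of -0.06 (-0.14 to 0.02) and -0.24 (-0.32 to -0.16; adjusted p = 0.163 by edgeR).

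Of 6 other serine proteases measured, 1 was called higher in shFAK, Prss23, and 1 lower, Prss22. The latter reached the CPM minimum in shNC alone, so its direction is tied to the filter. Prss22, brain-specific serine protease 4 or tryptase epsilon (chromosome 17, 23993535 to 23998100), had 38 and 58 counts in shNC and 9 and 12 in shFAK (vehicle, norepinephrine). The ratios were -1.71 (-3.56 to -0.56) and -1.97 (-3.50 to -0.97), or 3.28-fold and 3.92-fold lower, with an adjusted p of 4.5e-05 by edgeR. Its neighbours on the chromosome, Prss32 and Prss41, were not called, nor were Prss8 and Prss36. Prss23 had 49.9, 51.9, 78.6 and 72.2 CPM and ratios of 0.65 (0.53 to 0.78) and 0.48 (0.34 to 0.61; adjusted p = 6.61e-09 by edgeR). Htra1 was at 745, 802, 759 and 796 CPM, with ratios of 0.03 and -0.01, and was not called. Htra2, a mitochondrial member of the same family, was lower in shFAK (-0.27 and -0.35, adjusted p = 0.00217 by edgeR); its exons overlap those of Aup1, which had 2980, 2971, 2175 and 2082 counts, and Loxl3, which had 2880, 2704, 2798 and 2603, so its reads cannot be told from theirs without strand.

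The paired epithelial inhibitors Spint1 and Spint2 were called in opposite directions by edgeR, Spint1 with 0 inside its interval under vehicle. Spint2 (chromosome 7, 29256323 to 29281912) had 206 and 265 CPM in the shNC libraries and 174 and 207 in those of shFAK. The shNC vehicle and shFAK norepinephrine libraries were within 1 CPM of each other, while within each treatment shFAK was lower, with ratios of -0.24 (-0.31 to -0.17) and -0.36 (-0.43 to -0.29; adjusted p = 0.00295 by edgeR). Spint1, at 83, 59, 84 and 107 counts, had ratios of 0.17 (-0.42 to 0.77) and 0.99 (0.40 to 1.64; adjusted p = 0.0238 by edgeR and 0.371 by DESeq2). Of 6 measured serpins, 1 was called higher and 1 lower. Serpinb9, the granzyme B inhibitor, was at 51.1, 51.9, 69.6 and 76.5 CPM (adjusted p = 3.25e-07 by edgeR), with both shFAK libraries the higher ones. Serpinb6a was at 131, 157, 120 and 124 CPM (adjusted p = 0.0266 by edgeR, 0.131 by DESeq2 and 0.138 by edgeR with library size alone). Its exons overlap those of Ripk1 and Nqo2 on the other strand. Serpinb6b, Serpinb9b and Serpini1 were not called.

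Ratios moved with gene length over the whole table, and the members shared this in part. Across the 12351 genes the Spearman correlation of length with the shFAK to shNC ratio was 0.32 under vehicle and 0.47 under norepinephrine; across the 42 genes, which share the same libraries, it was 0.28 and 0.25. Of the 21 members longer than the member median of 4006 bases, 10 were called higher and 2 lower; of the other 21, 6 were called higher and 4 lower. With the length trend taken off, 18 of the 22 members called by edgeR were called in the same direction, and Timp1, Plat, Adamts12 and Mmp28 were not called. Serpinb6b, not called before, was then called higher in shFAK (0.21, adjusted p = 0.0203 by edgeR).

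**Figure D3:**
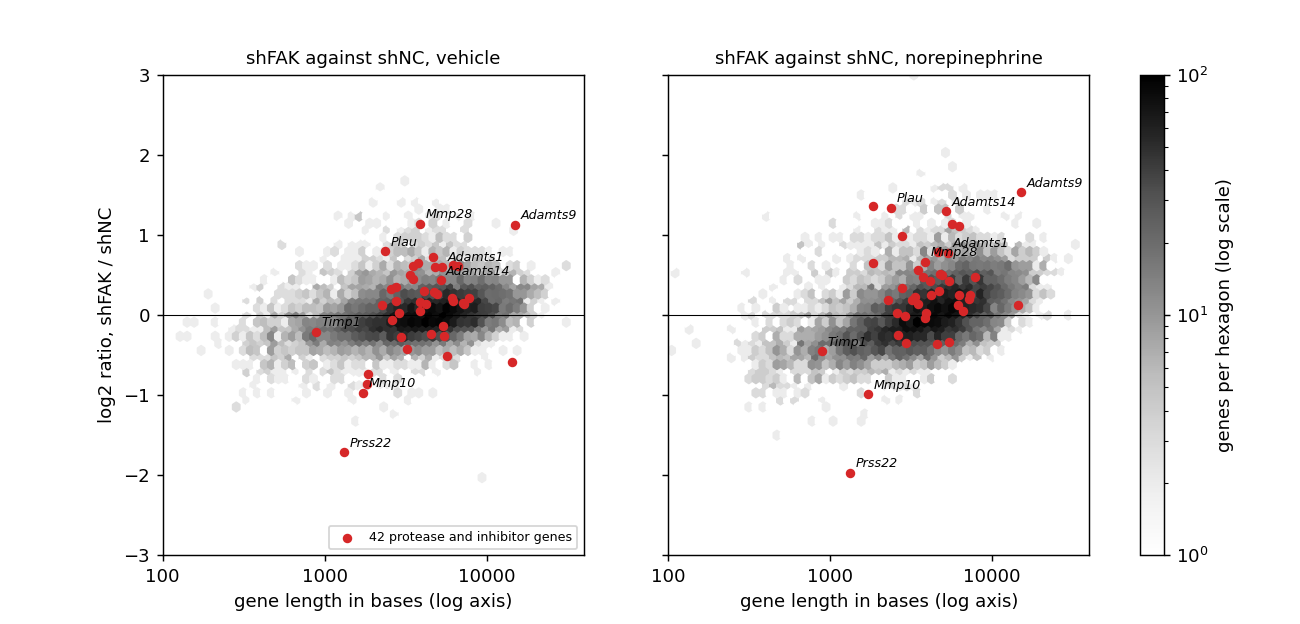
Log2 ratio of shFAK to shNC against gene length (log axis) under vehicle (left) and norepinephrine (right); grey hexagons count all 12351 genes and red points are the 42 protease and inhibitor genes. The cloud of genes rises to the right, most under norepinephrine, and Prss22 and Adamts9 lie at its lower and upper edges in both panels.

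The second comparison asked what 24 h of norepinephrine did to the same genes in each line. Few members changed. In the additive model, which takes the responses of both lines as alike, 2 were called higher, Spint2 and Serpinb6b, and 2 lower, Adamts9 and Adam10. That is 4.76% in each direction, near the 5.04% and 7.29% of all genes called. At an unadjusted p under 0.05 there were 9 members, and the DESeq2 Wald test called 0 (4 at an unadjusted p under 0.05), against 0.219% of all genes higher and 0.486% lower. No member met the size rule in shNC, against 0.364% of all genes higher and 0.494% lower. In shFAK 2 members met it, both higher, and none lower, against 0.696% and 0.178%. Both, Prss8 and Prss32, passed the CPM filter only in the shFAK norepinephrine library, so this count is no support for a response of the members. The member medians were 0.06 in shNC and 0.12 in shFAK, and 16 of the 42 genes had ratios of opposite sign in the lines. Without the fold condition, the interval left out 0 for 8 members higher and 6 lower in shNC (21.7% and 22.8% of all genes). In shFAK it did so for 11 higher and 6 lower (10.4% and 12.3%). The 11 include Prss8 and Prss32, whose part in this count is tied to the filter. No member met the size rule in both lines, against 0.0405% of all genes higher and 0.0243% lower in both.

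**Figure D4:**
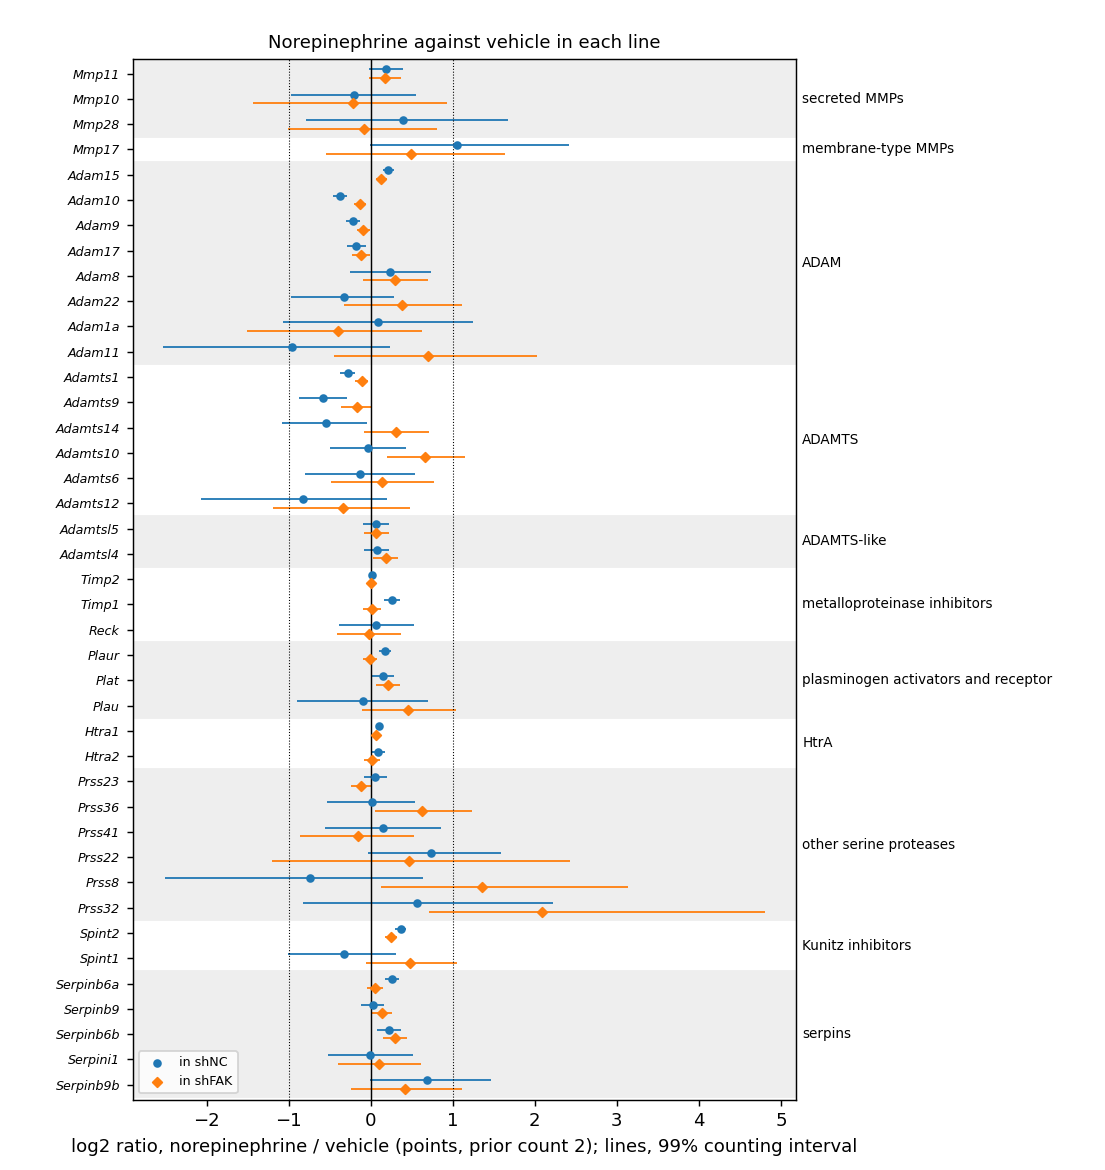
Log2 ratio of norepinephrine to vehicle for 41 of the 42 genes in shNC (blue circles) and shFAK (orange diamonds), ordered by role; lines are 99% counting intervals and dotted lines mark 2-fold. Most points lie between the dotted lines; Prss8 (1.36) and Prss32 (2.08) in shFAK lie to the right with wide intervals.

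Spint2 rose with norepinephrine in both lines, from 206 to 265 CPM in shNC and from 174 to 207 in shFAK. The ratios were 0.36 (0.30 to 0.43) and 0.25 (0.17 to 0.32), and the model gave 0.30 ± 0.09 (SE; adjusted p = 0.00888 by edgeR and 0.136 by DESeq2). Serpinb6b was at 42.1 and 49.2 CPM in shNC and 45.9 and 56.2 in shFAK (0.26 ± 0.09 (SE), adjusted p = 0.0334 by edgeR), and was no longer called with the length trend taken off (adjusted p = 0.131). Adamts9 fell from 15.3 to 10.2 CPM in shNC, a ratio of -0.58 (-0.87 to -0.29), and was at 33.5 and 29.7 CPM in shFAK, a ratio of -0.17 (-0.36 to 0.02); the model gave -0.35 ± 0.10 (SE; adjusted p = 0.0109 by edgeR). Adam10 had ratios of -0.37 (-0.46 to -0.29) and -0.13 (-0.20 to -0.05), with -0.25 ± 0.09 (SE) in the model (adjusted p = 0.0386 by edgeR). The difference of responses, shFAK minus shNC, left out 0 for Adamts9 (0.41, 0.07 to 0.75), Adam10 (0.25, 0.14 to 0.36) and Spint2 (-0.12, -0.22 to -0.02). It did not for Serpinb6b (0.07, -0.14 to 0.27). For Adamts9, Adam10 and Spint2 the model's adjusted p therefore rests on like responses that their counts did not show. With the length trend taken off the Adamts9 change was -0.16 (adjusted p = 0.297). Across all genes the norepinephrine ratios fell with length, with a Spearman correlation of -0.49 in shNC and -0.29 in shFAK.

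The shFAK genes that met the size rule were low-count serine proteases. Prss8 (chromosome 7, 127925716 to 127930104) went from 20 to 10 counts in shNC and from 10 to 26 in shFAK, with ratios of -0.74 (-2.51 to 0.64) in shNC and 1.36 (0.12 to 3.13) in shFAK. It was also the 1 member whose responses differed by the size rule, at 2.09 for shFAK minus shNC (interval 0.14 to 4.05); 0.551% of all genes met the rule in that direction, and 0.235% of all genes and no member in the other. Without the fold condition the difference left out 0 for 7 members in the first direction and 5 in the other, against 11.9% and 11.1% of all genes. The 7 include Prss8, whose part in this count is tied to the filter. The shFAK norepinephrine library enters both the norepinephrine ratio in shFAK and the shFAK to shNC ratio under norepinephrine. The latter was also 1.36 (0.13 to 3.14) for Prss8. Prss8 exons overlap those of Kat8 on the other strand, with 380, 378, 330 and 308 counts. Prss36, which lies 2.5 kb away, had 107, 97, 71 and 100 counts and ratios of 0.01 and 0.62 (0.05 to 1.24). Prss32 had 12, 17, 5 and 25 counts, with a ratio of 2.08 (0.70 to 4.81) in shFAK, and overlaps Prss41 (60, 60, 68 and 55 counts) and the antisense gene Gm15947. With a prior count of 10, Prss8 was at 0.96 in shFAK and no longer met the rule.

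The shFAK norepinephrine library stood apart at low counts. It held 119 genes with at least 8 counts there and at most 2 in each other library, while the other libraries held 4 to 9 such genes each. It also had a count for 85 of the 165 members below 1 CPM, against 53 to 64 in the other libraries. Mmp9, chosen here after its values were seen, was the 1 such member with the same pattern, at 2, 1, 1 and 11 counts. The part of this excess in the Prss8 and Prss32 values was not tested. Prss32, Adam11 and Prss8 passed the CPM threshold by the least, at 1.07, 1.11 and 1.11 CPM in their highest library, and Adamts4 (0.94), Htra4 and Serpinb9e (both 0.81) fell short of it by the least. Of the 165 genes below it, 150 had at most 10 counts in every library.

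Genes outside the symbol rule that activate, bind or accompany these proteases were taken from a list of 39, of which 26 were measured. In shFAK 7 were called higher and 4 lower (19.5% and 16.2% of all genes), with a median ratio of 0.10 under vehicle and 0.05 under norepinephrine. Slpi, a secreted leukocyte protease inhibitor, had 126 and 185 counts in shNC and 432 and 595 in shFAK, with ratios of 1.92 (1.56 to 2.33) and 1.82 (1.52 to 2.16). Mme, the membrane metallopeptidase neprilysin, had 846 and 609 counts in shNC and 1687 and 1458 in shFAK, with ratios of 1.15 (1.00 to 1.31) and 1.41 (1.23 to 1.59). Both met the size rule in both pairs. The other genes called between the lines did not meet the size rule. Higher in shFAK were Lrp1 (0.41 and 0.69), Anpep (0.39 and 0.59), Ctsb (0.31 and 0.24), F2r (0.22 and 0.29) and Bmp1 (0.21 and 0.27). Lower were Anxa2 (-0.50 and -0.60), S100a10 (-0.30 and -0.58), Plgrkt (-0.39 and -0.42) and Tspan15 (-0.27 and -0.36). Of the genes called between the lines, Mme, Lrp1, Anpep, Anxa2 and S100a10 had responses that differed by more than counting error. For these genes the model's condition of like responses was not met in the counts. No run with the length trend taken off is reported for the list of 39. With norepinephrine, Slpi was called higher (0.70 in shNC, 0.60 in shFAK, adjusted p = 4.95e-06 by edgeR) and the thrombin receptor gene F2r lower (-0.31 and -0.23, adjusted p = 0.025 by edgeR), and none of the 26 met the size rule.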

How the data were processed

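The submitters' processing notes list featureCounts 1.5.0-p3, HISAT2 2.0.5 and mm10. The authors deposited raw read counts per gene; the annotation release, strand setting and handling of multi-mapping reads are not given in the sources used here. Columns were assigned to samples by title. Per the labels' protocols the library kit was NEBNext Ultra, which does not mark strand. Genes with at least 1 CPM of the library total in a library were kept (12351). Printed CPM and ratios used TMM factors of edgeR 4.0.16 in R 4.3.3, a prior count of 2 and exact 99% Clopper-Pearson intervals, which cover counting error only. Reads that PCR copied are not separate molecules, and no molecular identifiers were used to merge them. The difference of responses used a normal-approximation interval. The additive model was fitted with glmQLFit, with Benjamini-Hochberg adjustment over all kept genes; DESeq2 1.42.0 was an alternative. Its prior degrees of freedom were infinite, so a gene's own departure had no weight. Exon overlaps and copies (95% identity over 100 bases, minimap2 2.31) came from GENCODE M21 and were found for 14 members. Counts over the members and marker lists include genes whose own values are not reported here. The scripts were tested on simulated data. Members and lists were chosen with earlier results of these data known. Named genes were those that met the size rule, the highest per length, and those called with the largest ratios; the rest are named to account for the list.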

Additional observations from a re-analysis of the deposited data

Results flagged for a closer look

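The norepinephrine response of Prss8, the gene of the membrane-linked serine protease prostasin, differed between the lines by 2.09 on the log2 scale (shFAK minus shNC), with a higher level under norepinephrine than under vehicle in shFAK and a lower one in shNC. It had 20 and 10 counts in shNC vehicle and norepinephrine and 10 and 26 in shFAK. Prss8 reached 1 CPM only in the shFAK norepinephrine library, the one that makes the difference, so it entered the described genes through its highest value. The difference was not tested over replicates, since each group had 1 library, and its interval covers counting error only.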

How the results depend on the processing

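No paired analysis was possible because the groups share a single replicate number; the additive model already holds treatment as a term beside hairpin. No called gene changed sign under any alternative run, but 97 uncalled values did, 68 of them with the length trend or the length and GC trend taken off. All 97 were within 0.254 of 0 on the log2 scale in the reported setting. They include Timp2 between the lines, at 0.04 and -0.01 with the length trend taken off, Adamts10, at 0.09 and -0.03, and the norepinephrine change of Htra2, at 0.05 and -0.01. The members' median difference of responses went from 0.06 to -0.003 with the length trend taken off. Counts of members meeting the size rule moved as follows. Higher in shFAK under vehicle, the count of 2 became 1 with a prior count of 10, with a minimum of 5 CPM, or with the length trend or the length and GC trend taken off, 6 with no filter, 7 at 1.5-fold and 0 among the 28 members with no copy or exon overlap; the count of 1 lower became 2 with a prior count of 0.5 or at 1.5-fold and 0 at 5 CPM. Under norepinephrine, the count of 5 higher became 3 with a prior count of 10 or without overlapping members, 2 at 5 CPM and 8 at 1.5-fold, and the count of 1 lower became 2 with DESeq2 size factors, a prior count of 0.5, no filter or 1.5-fold and 0 at 5 CPM. For norepinephrine in shNC, 0 higher became 1 with DESeq2 or upper-quartile factors or with either trend taken off. In shFAK, 2 higher became 1 with a prior count of 10 or the length and GC trend, 4 at 1.5-fold and 0 at 5 CPM or without overlapping members. The count of 1 for the difference became 2 with a prior count of 0.5 and 0 with a prior count of 10, at 5 CPM or without overlapping members. In the additive model, the hairpin counts of 16 and 6 became 6 and 3 with DESeq2 and 7 and 1 against a 1.2-fold threshold (6.44% and 2.86% of all genes). The norepinephrine counts of 2 and 2 became 1 and 1 with library size alone (2.48% and 5.45% of all genes), 0 and 1 with no filter (1.03% and 2.45%), and 0 and 0 with DESeq2 (0.219% and 0.486%) or a 1.2-fold threshold (0.34% and 0.356%). They became 2 and 1 with the length trend taken off (2.87% and 3.28%) or without overlapping members (5.04% and 7.29%), and 3 and 0 with the length and GC trend (1.28% and 1.59%). Over all genes, the direction of the hairpin split turned with length: 2408 higher and 2003 lower became 2842 and 1162 with library size alone and 1519 and 2658 with the length trend taken off. The length and GC trend and the members without overlap were chosen after seeing the data. The cause of these changes was not tested. Genes with few counts, such as Prss8, Prss32 and Mmp28, had intervals more than 2 log2 units wide in the pairs where they met the rule, which is what this depth allows.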

Other observations

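Inhibitors made up 36.6% to 41.0% of the summed level per length in the 4 libraries. The 11 inhibitor genes gave 39.0% and 41.0% of the summed RPKM of the 42 genes in the shNC libraries (vehicle, norepinephrine). In the shFAK libraries they gave 36.6% and 37.0%. This sum rests largely on Timp2 and Timp1, at 12.5% and 11.9% of the mean summed level, so it does not describe the inhibitors as a class. Serpinb6b, Serpinb9 and Serpinb9b lie next to each other on chromosome 13, and of these Serpinb9 alone was called between the lines in the reported setting. With the length trend taken off, Serpinb6b was called as well.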
